A study of Arabidopsis thaliana with 6 samples.

Results

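The 10 genes described here cover the synthesis, breakdown and perception of brassinosteroids, the steroid hormones of plants, in whole Arabidopsis thaliana seedlings. They were listed by name and locus code, and no measured value entered the rule, but earlier results of these data were known. DET2, DWF4, CPD, ROT3, CYP90D1, BR6OX1 and BR6OX2 stand for synthesis and BAS1 for breakdown. BRI1 is the receptor and BZR1 the transcription factor at the end of the signal. All 10 were found among the 33602 gene models of the count tables, and all 10 passed the filter on low counts. The 6 libraries carry 35S::CUC2-GR, in which a strong viral promoter that is active in most cell types drives the boundary transcription factor CUC2 fused to the steroid-binding part of a glucocorticoid receptor, a fusion that dexamethasone lets into the nucleus. The 3 Dex libraries are from plantlets kept in 10 mL of liquid medium with 10 µL of dexamethasone for 6 h, and the 3 no_Dex libraries are from plantlets of the same genotype listed without treatment. All were in vitro seedlings at Boyes stage 1.02, kept under long days at 21 °C. No mock-treated group and no line without the transgene was analysed here, so an effect of dexamethasone or handling and an effect of CUC2-GR cannot be told apart, and the labels do not say whether the line is a single transformant.

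Brassinosteroids are made from plant sterols by a steroid reductase and a chain of cytochrome P450 enzymes, and they promote cell elongation. The hormone binds the receptor kinase BRI1 at the cell surface. The signal passes through kinases and phosphatases that switch off BIN2, and BZR1 and its relatives then bind DNA, induce growth genes and repress the hormone's own synthesis genes. In the boundaries between organs, where CUC genes act, brassinosteroid levels are kept low: LOB, a boundary factor, activates BAS1, and BZR1 is known to repress CUC genes.

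Between 26161582 and 29481253 read pairs were counted per library, and each gene's count is given as CPM, its share of the library's pairs on a common scale, with library sizes corrected by TMM, a weighted mean of log ratios between libraries. Dex replicate 1 stood apart from the other Dex libraries, with correlations of log2 CPM across genes of 0.991 and 0.989 against 0.996 between Dex replicates 2 and 3, so results that turn on it are given without it too. The count of CUC2, which adds the transgene and the endogenous gene, was 862, 873 and 855 CPM in Dex and 889.9, 836 and 832 CPM in no_Dex. Transgene and endogenous transcript were not separated in this count, and it cannot show whether the fusion protein was activated. No marker of the labelled tissue was at 0: the 7 genes of photosynthetic cells and the 8 root genes all had pairs in every library. In whole seedlings, fewer cells of a type and less RNA per cell cannot be told apart.

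BZR1 and its close relative BES1 are shown because their transcripts moved in opposite directions, which makes it matter how well reads tell them apart. Their coding sequences are 85.0% identical over the aligned bases of the TAIR10.1 assembly, and the longest run of identical bases is 71 long, starting at base 700 of the BZR1 and base 763 of the BES1 coding sequence. Nothing in it is capitalised because it is the same in both genes.

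BZR1 and BES1 shared run: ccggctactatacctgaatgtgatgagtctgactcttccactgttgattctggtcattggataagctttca

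Reads that scored equally well in both places were removed by the authors, so any pair lying wholly within such a run would be missing from both counts. How many pairs were lost in this way was not computed. BR6OX1 and BR6OX2, also described below as a contrast, are 81.9% identical, and their longest shared run of 32 bases starts at coding base 97 of each.

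BR6OX1 and BR6OX2 shared run: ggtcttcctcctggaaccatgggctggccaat

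ROT3 with CYP90D1 and BRI1 with its relative BRL1 are less alike, at 61.7% and 62.8% identity with longest runs of 12 and 20 bases.

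The 250 bases before the annotated start of these genes are shown because BZR1 binds particular letters in the promoters it regulates. Capitals mark the brassinosteroid response element (CGTGTG or CGTGCG) and the E-box (CANNTG, which includes the G-box CACGTG), each searched on both strands, and all windows read 5′ to 3′ on the gene's own strand of TAIR10.1. BZR1 lies at chr1:28185254-28185503, BES1 at chr1:6688213-6688462, CPD at chr5:1706949-1707198, BR6OX1 at chr5:15598090-15598339 and BR6OX2 at chr3:11810476-11810725.

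BZR1 promoter: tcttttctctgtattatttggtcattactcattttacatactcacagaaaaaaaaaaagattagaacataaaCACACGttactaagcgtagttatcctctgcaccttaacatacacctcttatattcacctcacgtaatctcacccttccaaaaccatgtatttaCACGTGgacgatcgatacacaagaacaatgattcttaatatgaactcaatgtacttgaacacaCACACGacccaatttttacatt
BES1 promoter: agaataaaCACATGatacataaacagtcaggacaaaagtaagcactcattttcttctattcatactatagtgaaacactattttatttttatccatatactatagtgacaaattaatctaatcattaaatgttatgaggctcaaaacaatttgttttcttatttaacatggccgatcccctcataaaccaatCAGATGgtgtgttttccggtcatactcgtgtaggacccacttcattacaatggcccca
CPD promoter: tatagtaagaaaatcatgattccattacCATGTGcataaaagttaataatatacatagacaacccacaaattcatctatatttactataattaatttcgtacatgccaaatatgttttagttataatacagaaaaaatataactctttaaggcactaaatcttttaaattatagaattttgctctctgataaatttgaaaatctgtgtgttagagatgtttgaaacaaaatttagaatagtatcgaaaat
BR6OX1 promoter: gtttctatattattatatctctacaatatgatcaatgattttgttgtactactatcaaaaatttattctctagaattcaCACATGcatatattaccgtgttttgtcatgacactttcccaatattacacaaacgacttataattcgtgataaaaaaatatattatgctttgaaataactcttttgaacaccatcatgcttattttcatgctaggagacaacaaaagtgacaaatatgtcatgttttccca
BR6OX2 promoter: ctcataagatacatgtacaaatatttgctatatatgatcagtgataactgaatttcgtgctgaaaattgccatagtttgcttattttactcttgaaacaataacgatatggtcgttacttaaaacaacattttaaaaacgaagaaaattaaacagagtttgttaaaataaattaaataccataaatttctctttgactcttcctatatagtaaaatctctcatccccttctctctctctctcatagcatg

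The BZR1 window held 2 response elements, at 178 and 22 bases before the start, and 1 G-box at 85 bases before it. Among the 10 genes BZR1 alone had a response element in this window, where 6.7% of the 26706 windows of protein-coding genes held one. An E-box was present in 9 of the 10 windows, all but that of BR6OX2, against 55.3% of all windows. These are matches of letters in a short window, and the rest of each promoter was not searched. Each window lies before the outermost annotated start of its gene. For CPD that start is at 1706948, while other annotated CPD transcripts start at 1706787, and the bases between these starts were not searched.

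Across all 21344 tested genes, edgeR's quasi-likelihood test called 14.4% changed at a Benjamini-Hochberg adjusted p under 0.05, with 5.99% higher and 8.4% lower in Dex. Of the 10 brassinosteroid genes 1 was called, BZR1, which rose, and none fell. The share called, 10% of the genes, was no higher than the background. Their median absolute log2 fold change was 0.18, against 0.14 over all tested genes. At an unadjusted p under 0.05 there were 5 of 10, against 30.1% of all tested genes, and in 5 of 10 the Dex and no_Dex values did not overlap, against 36.3% of all tested genes. When the fit included the replicate number as a block, 2 of the 10 were called, because CPD was added, against 17.6% of all tested genes in the same fit.

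**Figure D1:**
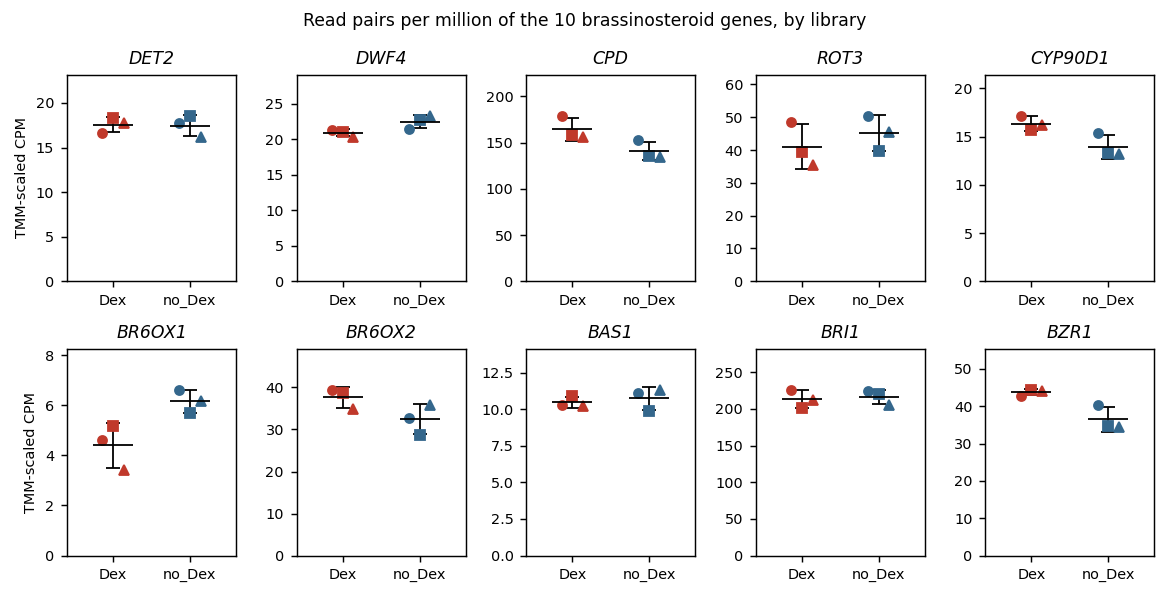
TMM-scaled CPM (vertical axis, from 0) of each of the 10 genes in the 3 Dex libraries (red, left) and the 3 no_Dex libraries (blue, right). Circles, squares and triangles are replicates 1, 2 and 3, long dashes are means and bars are SD (n = 3). BZR1, CPD, CYP90D1, BR6OX1 and DWF4 have groups that do not overlap, and the other genes have groups that do.

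Divided by the length of the gene model in kilobases, which turns CPM into RPKM, the levels of the 10 genes spanned 29.9-fold. CPD was the most abundant, with a mean level of 89.1 RPKM over the 6 libraries, followed by BRI1 at 51.5 RPKM. Next came BZR1 (25.7 RPKM), ROT3 (20.2 RPKM), BR6OX2 (19.6 RPKM) and DET2 (16.0 RPKM), and each of these 4 overlapped its neighbour in the order over the 6 libraries. DWF4 (12.5 RPKM), CYP90D1 (7.92 RPKM), BAS1 (5.39 RPKM) and BR6OX1 (2.98 RPKM) followed, each with a range apart from the next. BR6OX1 was the only gene of the 10 with fewer than 200 pairs in all libraries, 96 to 193, so its counting error was the largest.

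**Figure D2:**
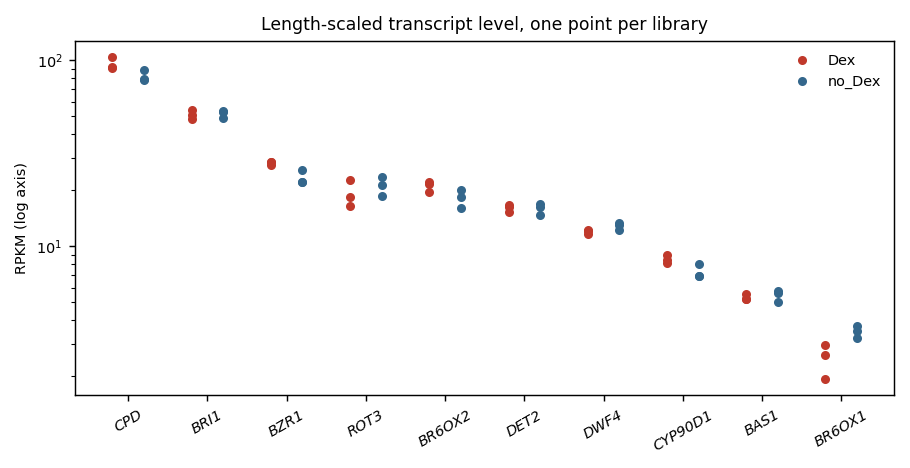
RPKM on a log axis for the 10 genes, ordered by their mean over 6 libraries, with 1 point per library (Dex red and left, no_Dex blue and right within each gene). Levels run from 104 RPKM for CPD in Dex replicate 1 to 1.93 RPKM for BR6OX1 in Dex replicate 3.

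The synthesis genes are taken in the order of the pathway. DET2 (AT2G38050, TAIR10.1 chromosome 2, 15921136 to 15922321, minus strand, 2 exons) encodes the steroid reductase that acts early in the pathway. Its values were 16.6, 18.3 and 17.7 CPM in Dex and 17.7, 18.6 and 16.1 CPM in no_Dex. The groups overlapped fully. The log2 fold change was 0.01 (SE 0.08, 95% interval -0.17 to 0.18), with an edgeR adjusted p of 0.966.

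DWF4 (AT3G50660, chromosome 3, 18813949 to 18817405, minus strand, 8 exons) encodes the P450 that hydroxylates the sterol side chain and is regarded as the rate-limiting step. It stood at 21.3, 21.0 and 20.3 CPM in Dex and 21.4, 22.7 and 23.3 CPM in no_Dex. All Dex values lay below all no_Dex values, with Dex replicate 1 and no_Dex replicate 1 nearly level. The log2 fold change of -0.11 (SE 0.06, 95% interval -0.25 to 0.04) was not called by edgeR (adjusted p = 0.291).

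CPD (AT5G05690, chromosome 5, 1702640 to 1706948, minus strand, 8 exons) encodes the P450 of the next oxidation and is a classic target of repression by BZR1. It had 179, 159 and 156 CPM in Dex and 152, 136 and 134 CPM in no_Dex. Replicate 1 was highest in both groups, and the lowest Dex value lay just above the highest no_Dex value. Its mean was 164 ± 12.6 CPM in Dex and 141 ± 10.0 CPM in no_Dex (SD, n = 3 each), a log2 fold change of 0.22 (SE 0.08, 95% interval 0.05 to 0.40). The edgeR adjusted p was 0.0929 without the block and 0.0244 with the replicate number as a block, so CPD was called higher only in the blocked fit among the alternatives run.

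ROT3 (AT4G36380, chromosome 4, 17187528 to 17192507, minus strand, 9 exons) and CYP90D1 (AT3G13730, chromosome 3, 4497893 to 4500920, minus strand, 7 exons) encode related P450s that hydroxylate the side chain and can replace each other in part. ROT3 had 48.5, 39.3 and 35.4 CPM in Dex and 50.4, 39.6 and 45.6 CPM in no_Dex. CYP90D1 had 17.1, 15.6 and 16.2 CPM in Dex and 15.4, 13.3 and 13.2 CPM in no_Dex. The ROT3 groups overlapped, while every CYP90D1 value in Dex was above every value in no_Dex. The log2 fold change of ROT3 was -0.14 (SE 0.13, 95% interval -0.43 to 0.15; edgeR adjusted p = 0.509) and that of CYP90D1 was 0.23 (SE 0.08, 95% interval 0.04 to 0.42; edgeR adjusted p = 0.110). The ROT3 value turned on single libraries: its log2 fold change was -0.28 without Dex replicate 1 (edgeR adjusted p = 0.0589), -0.23 without no_Dex replicate 2, -0.04 without Dex replicate 3 and -0.06 without no_Dex replicate 1, and it was called in none of these.

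BR6OX1 (AT5G38970, chromosome 5, 15594674 to 15598089, minus strand, 9 exons) and BR6OX2 (AT3G30180, chromosome 3, 11810726 to 11813883, plus strand, 9 exons) encode the oxidases of the last steps, and BR6OX2 also makes brassinolide, the most active form. BR6OX1 had 4.61, 5.19 and 3.42 CPM in Dex and 6.60, 5.69 and 6.17 CPM in no_Dex, with no overlap. BR6OX2 had 39.4, 38.7 and 34.8 CPM in Dex and 32.8, 28.7 and 35.8 CPM in no_Dex, where no_Dex replicate 3 exceeded Dex replicate 3. BR6OX1 thus had the lowest fold change of the 10 genes, at -0.48 on the log2 scale (SE 0.16, 95% interval -0.85 to -0.12), and was not called (edgeR adjusted p = 0.0785). Without Dex replicate 1 the log2 fold change was -0.52 and the gene was called lower (edgeR adjusted p = 0.0493). In that fit 2726 of all tested genes were called lower, against 1792 in the reported fit. BR6OX1 was not called when any other library was left out. Without Dex replicate 3 its log2 fold change was -0.33 (edgeR adjusted p = 0.154). The adjusted p was 0.0653 without Dex replicate 2 and 0.143 to 0.212 without 1 no_Dex replicate (edgeR). The log2 fold change of BR6OX2 was 0.21 (SE 0.09, 95% interval 0.01 to 0.42; edgeR adjusted p = 0.151).

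BAS1 (AT2G26710, chromosome 2, 11380463 to 11383821, plus strand, 4 exons) encodes the P450 that inactivates brassinosteroids and is itself induced by them. It had 10.3, 10.9 and 10.2 CPM in Dex and 11.1, 9.86 and 11.3 CPM in no_Dex. The groups overlapped, and the log2 fold change was -0.04 (SE 0.08, 95% interval -0.23 to 0.15; edgeR adjusted p = 0.791). LOB, which activates BAS1 in organ boundaries, was at 2.27, 1.79 and 2.88 CPM in Dex and 2.22, 1.91 and 1.86 CPM in no_Dex (log2 fold change 0.22, SE 0.20, with an adjusted p of 0.517 by edgeR). ATAF2, a NAC factor that represses BAS1, was at 44.0, 46.6 and 37.6 CPM in Dex and 51.2, 46.2 and 47.4 CPM in no_Dex (log2 fold change -0.18, SE 0.08, with an adjusted p of 0.206 by edgeR).

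BRI1 (AT4G39400, chromosome 4, 18324457 to 18328831, plus strand, 1 exon) encodes the receptor. It had the most read pairs of the 10 genes, 5266 to 6655 per library, and values of 225, 201 and 213 CPM in Dex and 224, 220.2 and 205 CPM in no_Dex. The groups overlapped fully. The log2 fold change was -0.02 (SE 0.07, with an adjusted p of 0.851 by edgeR), and its 95% interval of -0.17 to 0.13 corresponds to 0.886 to 1.09 times the no_Dex level.

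BZR1 (AT1G75080, chromosome 1, 28185504 to 28188075, plus strand, 3 exons) had 42.8, 44.3 and 44.2 CPM in Dex and 40.3, 34.6 and 34.5 CPM in no_Dex. All Dex values were above all no_Dex values, with no_Dex replicate 1 the nearest. The mean rose to 43.8 ± 0.797 CPM in Dex, against 36.5 ± 3.34 CPM in no_Dex (SD, n = 3 each), which is 1.20-fold. The log2 fold change was 0.26 (SE 0.07, 95% interval 0.10 to 0.43), with an edgeR adjusted p of 0.0448. This call sat at the edge of the threshold: it was lost when no_Dex replicate 2 or 3 or Dex replicate 2 or 3 was left out (edgeR adjusted p = 0.162, 0.150, 0.122 and 0.108) and when single reads were counted in place of pairs (0.0513). The gene overlaps AT1G75090 and AT1G09523 on the opposite strand, and the libraries are not stranded, so reads of overlapping genes cannot be told apart. The counted model matches in length the BZR1 transcript that shares 0 exonic bases with AT1G75090 and 220 with AT1G09523, which was not analysed here. AT1G75090 itself was at 3.18, 3.74 and 3.56 CPM in Dex and 4.28, 5.51 and 4.35 CPM in no_Dex.

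**Figure D3:**
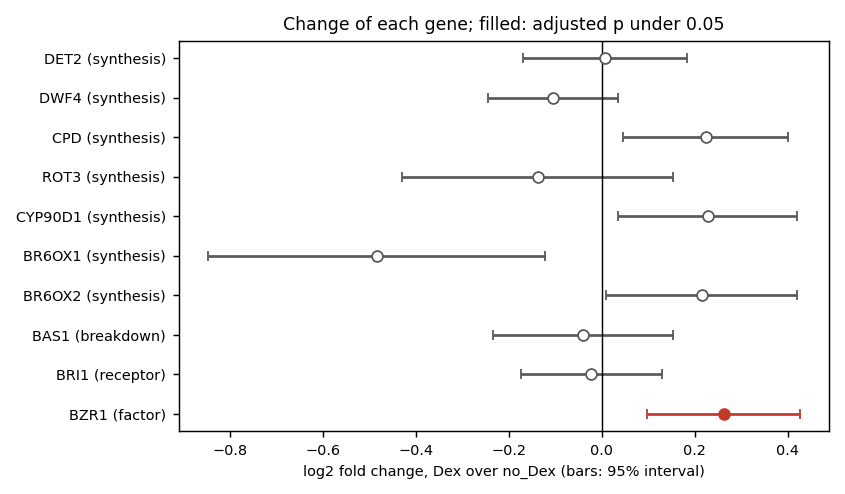
Log2 fold change of Dex over no_Dex for the 10 genes (points) with 95% intervals (bars); the filled red point is the gene called by edgeR at an adjusted p under 0.05. BZR1 alone is filled, and the interval of BR6OX1 is the widest.

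By the rule of smallest root-mean-square difference between centred log2 CPM profiles over the 6 libraries, the genes with a symbol most like BZR1 were PS1 (0.034), FH6 (0.036) and WRKY65 (0.039). Of 8441 genes compared, 535 lay within 0.1 of BZR1, and among the other brassinosteroid genes CYP90D1 was the nearest, at 0.055. The likeness is therefore shared with many genes.

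Within a library, the ratio of a gene to its relative is free of library scaling. These 4 pairs were chosen after the values were seen. The ratio of BZR1 to BES1 was 0.382, 0.449 and 0.431 in Dex and 0.267, 0.248 and 0.277 in no_Dex, a difference of 0.67 on the log2 scale. The ratio of BR6OX1 to BR6OX2 was 0.117, 0.134 and 0.0983 in Dex and 0.201, 0.199 and 0.173 in no_Dex, a difference of -0.72. ROT3 over CYP90D1 differed by -0.37 and BRI1 over BRL1 by -0.43 on the log2 scale. In none of the 4 pairs did the groups overlap, and no test is given for pairs chosen in this way. The share without overlap over other pairs was not computed, and over all tested single genes it was 36.3%. These ratios show unequal change within a pair and not which gene moved.

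The other genes of the pathway were taken from 7 lists with 53 genes, of which 50 were tested. Of these 2 rose, 12 fell and 36 were not called, and their median log2 fold change was -0.03, beside 0.01 over all tested genes. The share called lower was 24%, against 8.4% of all tested genes, and most of it came from the factors related to BZR1 and from genes induced by the hormone. The lists were chosen with earlier results of these data known, so the 2 shares are not an independent comparison. CDG1, TCP1 and CES had 2 pairs or fewer in any library and were not tested. Without no_Dex replicate 2 or without Dex replicate 2 the number that fell was 7, and without Dex replicate 1, 5 rose and 15 fell. The counts over all tested genes moved in the same directions in these fits. Genes called lower numbered 1792 in the reported fit, and 785, 1041 and 2726 in these 3 fits, in the order given. Genes called higher numbered 1279 in the reported fit and 2339 without Dex replicate 1. The genes added without Dex replicate 1 were UGT73C5, UGT73C6 and BAT1 among those higher, and DWF1, SERK4 and BEE1 among those lower.

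Upstream of the hormone, none of 7 sterol synthesis genes was called, with log2 fold changes between -0.25 and 0.08. DWF1, the reductase that supplies campesterol, had 434, 471 and 508 CPM in Dex and 561, 571 and 547 CPM in no_Dex and did not pass the test (log2 fold change -0.25, SE 0.07, with an adjusted p of 0.0560 by edgeR). Its groups did not overlap, and it was called lower with the replicate block (edgeR adjusted p = 0.0473), without Dex replicate 1 (0.0394) or 3 (0.0493), by DESeq2 (0.0143) and by limma-voom (0.0496). Of 6 other genes of breakdown or conjugation 1 rose, 1 fell and 4 were not called. CYP72C1, a P450 related to BAS1 that also lowers active hormone, rose to 28.9, 28.2 and 29.1 CPM in Dex, against 24.7, 25.2 and 25.3 CPM in no_Dex (log2 fold change 0.20, SE 0.05, with an adjusted p of 0.0400 by edgeR). BEN1, a reductase-like protein that affects hormone levels, fell to 47.0, 38.1 and 39.0 CPM in Dex, against 50.0, 52.0 and 53.7 CPM in no_Dex (log2 fold change -0.33, SE 0.08, with an adjusted p of 0.0373 by edgeR). Both calls were lost without Dex replicate 2 or 3 and without any no_Dex replicate, with edgeR adjusted p between 0.0794 and 0.124. The CYP72C1 call was also lost with no low-count filter (0.0569), with single reads (0.0510) and by the DESeq2 Wald test (adjusted p = 0.119). The glycosyltransferases UGT73C5 and UGT73C6 had the highest log2 fold changes of the pathway lists, 0.70 (SE 0.24) and 0.82 (SE 0.36), and neither was called (edgeR adjusted p = 0.0873 and 0.166). Their coding sequences are 91.4% identical, with a shared run of 110 bases, and how this affected their counts was not tested. UGT73C5 was called higher with the replicate block (edgeR adjusted p = 0.0247) and by DESeq2 (0.0177), and without Dex replicate 1 both were called higher (0.000123 and 0.0135).

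Among 7 relatives and partners of the receptor, BRL1 rose and 6 were not called, with log2 fold changes of those 6 between -0.08 and 0.06. Without Dex replicate 1 the co-receptor gene SERK4 was called lower (log2 fold change -0.32, edgeR adjusted p = 0.0125). BRL1, a brassinosteroid receptor of vascular tissue, had 15.9, 16.1 and 18.0 CPM in Dex and 12.6, 13.0 and 11.9 CPM in no_Dex. The difference was 0.41 on the log2 scale (SE 0.08, with an adjusted p of 0.0115 by edgeR), and the call was lost without no_Dex replicate 3 (0.0535). The co-receptor BAK1 had a log2 fold change of 0.00 (95% interval -0.13 to 0.14). Of 10 genes that relay the signal from BRI1 to BZR1, 9 were tested and none was called. The kinase BIN2, which inactivates BZR1, had a log2 fold change of 0.04 (95% interval -0.10 to 0.19).

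Of the 6 relatives and partners of BZR1 4 fell, 2 were not called and none rose, where 8.4% of all tested genes were called lower. This list too was chosen with earlier results of these data known. BES1, which shares most functions with BZR1, fell to 112, 98.7 and 102 CPM in Dex, against 151, 139.6 and 125 CPM in no_Dex (log2 fold change -0.41, SE 0.08, with an adjusted p of 0.0160 by edgeR). Its call was lost without Dex replicate 2 or no_Dex replicate 1 or 2 (edgeR adjusted p = 0.0619, 0.0552 and 0.0678). BES1 overlaps AT1G19360 on the opposite strand, and the counted model matches in length a BES1 transcript that shares 13 exonic bases with it. AT1G19360 was at 80.2, 74.4 and 76.8 CPM in Dex and 81.0, 76.9 and 84.0 CPM in no_Dex and was not called. Its part in the BES1 count was not tested. BEH1 fell by 0.43 on the log2 scale (SE 0.08, with an adjusted p of 0.00949 by edgeR), with 14.4, 15.0 and 13.0 CPM in Dex and 19.6, 18.1 and 19.4 CPM in no_Dex. BIM1, a bHLH partner of BES1, fell by 0.35 (SE 0.05, with an adjusted p of 0.00532 by edgeR), with 70.2, 68.0 and 67.8 CPM in Dex and 91.5, 83.7 and 87.0 CPM in no_Dex. BEH1 and BIM1 were called in every alternative run. BEH4 fell by 0.20 (edgeR adjusted p = 0.0440), and without Dex replicate 1 alone among the left-out libraries it stayed called. The replicate block (0.0545), the fit with no low-count filter (0.0645) and DESeq2 (adjusted p = 0.115) also lost it. BEH2 and BEH3 had log2 fold changes of 0.14 and 0.20 and were not called (edgeR adjusted p = 0.111 and 0.297).

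Of 7 regulators of the synthesis and breakdown genes 5 were tested, and PIF4, a light- and temperature-dependent growth factor, was the 1 called. It had 64.3, 63.7 and 61.5 CPM in Dex and 79.4, 71.7 and 72.0 CPM in no_Dex, a log2 fold change of -0.24 (SE 0.06, with an adjusted p of 0.0330 by edgeR), and the call was lost without Dex replicate 2 or 3 or any no_Dex replicate (edgeR adjusted p between 0.0720 and 0.0970).

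Of 10 genes known to be induced by brassinosteroids 6 fell, 4 were not called and none rose, with a median log2 fold change of -0.79, where 8.4% of all tested genes were called lower and their median was 0.01. Auxin, light or touch also induce several of them, and some of these changes were known when the list was drawn up. PRE1, a small protein that promotes elongation, fell to 13, 14 and 15 pairs in Dex, against 46, 49 and 49 pairs in no_Dex (log2 fold change -1.73, SE 0.20, with an adjusted p of 0.00143 by edgeR). XTH22, a touch-induced wall enzyme, fell to 55.6, 61.1 and 43.4 CPM in Dex, against 144, 106 and 81.7 CPM in no_Dex (log2 fold change -1.05, SE 0.20, with an adjusted p of 0.0125 by edgeR). SAUR15, an auxin-induced growth gene, fell to 2.95, 2.75 and 3.31 CPM in Dex, against 4.14, 5.76 and 5.02 CPM in no_Dex, and its call (log2 fold change -0.73, SE 0.16, with an adjusted p of 0.0190 by edgeR) was lost without Dex replicate 2 or no_Dex replicate 2 or 3 (0.0680, 0.0783 and 0.0685). PRE6 fell by 1.21, the expansin EXPA8 by 1.01 and the auxin repressor IAA19 by 0.86 on the log2 scale, and these 3, with PRE1 and XTH22, were called in every alternative in which they were tested. BEE1, BEE2 and BEE3, bHLH factors named for their induction by the hormone, and PRE5 were not called, with log2 fold changes between -0.31 and 0.22. BEE1 was called lower without Dex replicate 1 (log2 fold change -0.52, edgeR adjusted p = 0.000356).

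Markers of photosynthetic cells and of roots had lower summed levels in Dex. Log2 fold changes were negative in 6 of the 7 photosynthetic markers and in all 8 root markers. The sum of the 7 photosynthetic markers was 8742, 13581 and 13155 CPM in Dex and 14573 to 16439 CPM in no_Dex. The lowest sum was that of Dex replicate 1. Of the 7 markers 1 was called lower (LHCB1.3), 14.3%, against 8.4% of all tested genes. The photosynthetic list was uneven, and LHCB1.3, at a mean of 4400 CPM in Dex and 7208 CPM in no_Dex, weighed most in its sum. RBCS1A, RBCS3B and PSAD1 had log2 fold changes of -0.01, 0.07 and -0.13, with overlapping groups, and were not called. In all 3 the lowest Dex value was that of Dex replicate 1. RBCS1A had 2154, 3585 and 3533 CPM in Dex and 2864 to 3333 CPM in no_Dex. Without Dex replicate 1 its Dex values lay above all no_Dex values. RBCS3B (921 CPM in Dex replicate 3, 928 CPM in no_Dex replicate 1) and PSAD1 still overlapped. The sum of the 8 root markers was 166 to 194 CPM in Dex and 220.2 to 237 CPM in no_Dex, and their median log2 fold change was -0.38. Of the 8 markers 2 were called lower (EXPA7 and RBOHC), 25%, against 8.4% of all tested genes. In 6 of the 8 the groups did not overlap, 75%, against 36.3% of all tested genes. Among the root markers the log2 fold change nearest 0 was that of PLT1, at -0.01. The part of these markers in the changes of the brassinosteroid genes was not tested.

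**Figure D4:**
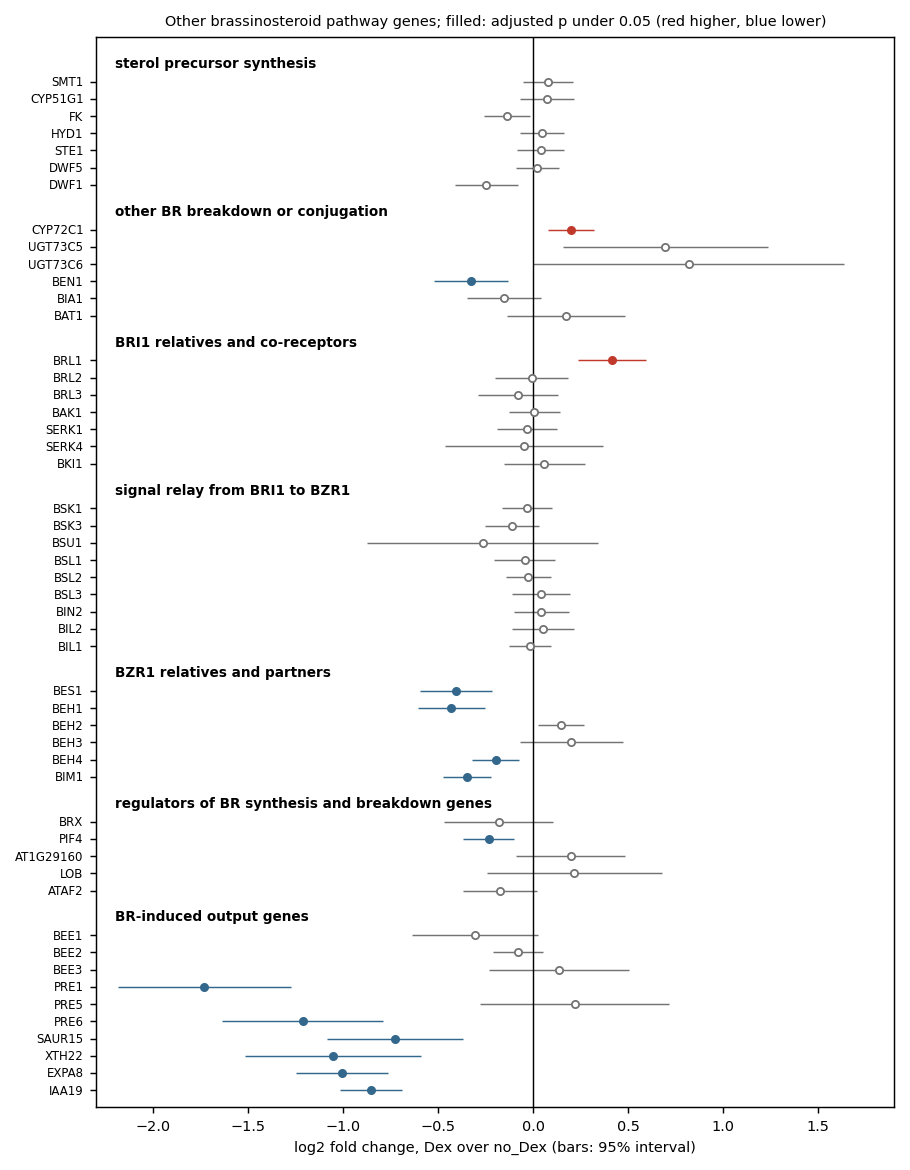
Log2 fold change of Dex over no_Dex for the 50 tested genes of the 7 other pathway lists (points) with 95% intervals (bars); filled points were called by edgeR at an adjusted p under 0.05, red higher and blue lower. The 12 genes called lower lie mostly among the relatives of BZR1 (4) and the output genes (6), and the relay from BRI1 to BZR1 lies between -0.27 and 0.05, with none called.

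**Figure D5:**
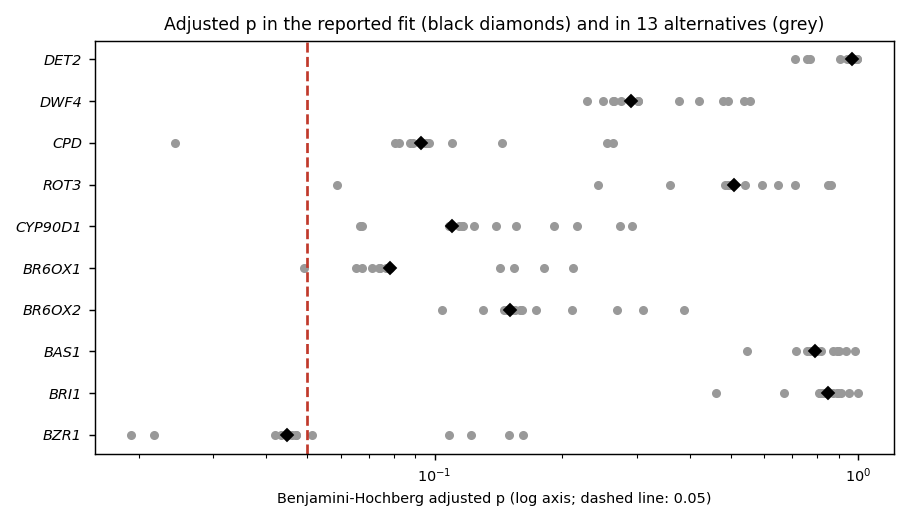
Adjusted p (horizontal log axis) of the 10 genes in the reported fit (black diamonds) and in 13 alternatives (grey circles), with a dashed line at 0.05. BZR1 lies on both sides of the line, CPD and BR6OX1 cross it in 1 alternative each, and the other 7 genes stay to its right.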

How the data were processed

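Read pairs of 6 polyA-selected, unstranded TruSeq libraries were used. The submitters' processing notes name Bowtie2, with no version, and the build TAIR10. The authors deposited, per the file headers, a raw count per gene model of properly paired read pairs, with reads of equal best and second-best score removed, beside counts of single reads and, as the unit other, the model length in bases. Pairs counted were 95.2% to 95.6% of those read.

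CPM and later values were computed here. edgeR 4.0.16 (R 4.3.3) filtered gene models (filterByExpr, minimum count 10, minimum total 15), leaving 21344 of 33602, applied TMM and ran its two-sided quasi-likelihood test of Dex over no_Dex on all genes, with Benjamini-Hochberg adjustment. SE is the absolute log2 fold change over the square root of F, and the approximate 95% intervals use the t distribution of that test. RPKM divides by the deposited model length. Sequences, positions and promoter windows are from the RefSeq annotation of TAIR10.1, where 32835 models had a locus tag, and coding sequences were aligned globally with Biopython 1.88.

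The genes named are the 10 members, CUC2, the called genes of the 7 pathway lists with uncalled examples, LOB and ATAF2, and the 3 genes most like BZR1 (mean log2 CPM of at least 1, pseudocount 0.5 CPM). The members and lists were chosen with earlier results of these data known, and the neighbours of BZR1 and BES1 were added after seeing them.

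The labels number replicates 1 to 3 in each group without saying what a number marks. For libraries that share a number, the correlation across genes of their deviations from the group mean was 0.213, 0.162 and 0.142, and for all other Dex and no_Dex combinations it was 0.0375 at most. The reported fit has no block. Going by the data only, the number was taken as a pairing in an alternative fit, which has it as a block. The series' design text calls the samples biological replicates but names no separate cultures, so p-values measure the spread between these samples. Alternatives were edgeR with RLE size factors (the method of DESeq2), the DESeq2 1.42.0 Wald test, limma-voom (limma 3.58.1) and other filters. The block, single reads and leaving out each library were the rest. The test was tested on simulated data.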

Additional observations from a re-analysis of the deposited data

How the results depend on the processing

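Leaving out a library changed the counts most. Over the 6 fits that leave out 1 library, genes called higher numbered 519 to 2339 and lower 785 to 2726, with the highest counts without Dex replicate 1. Among the 10 brassinosteroid genes 0 to 1 was higher and 0 to 1 lower, and of the other pathway genes 0 to 5 were higher and 7 to 15 lower. With the replicate block 2 of the 10 were higher, and with single reads 0. Counting single reads, or dropping the low-count filter, left 1 pathway gene higher in place of 2. The cause was not tested. Over the same 6 fits the log2 fold change of DET2 ran between -0.047 and 0.051 and that of BRI1 between -0.064 and 0.018, neither being called anywhere. DET2 changed sign without Dex replicate 2 (-0.024), Dex replicate 3 (-0.0017) and no_Dex replicate 3 (-0.047), and BRI1 without Dex replicate 2 (0.018). Of 311 values of the 10 genes and the 14 called pathway genes under alternatives 267 kept their direction and side of the threshold, 38 lost a call, 2 gained one and 4 changed sign. Among those 24 genes the block changed 2 calls, BEH4 (lost) and CPD (gained), and outside them DWF1 and UGT73C5 gained one. Depth limits the genes with few pairs most, such as BR6OX1 and PRE1.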

Other observations

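Of the 10 genes 7 encode cytochrome P450s: DWF4, CPD, ROT3, CYP90D1, BR6OX1, BR6OX2 and BAS1. None of the 7 was called by the edgeR quasi-likelihood test (4 had an unadjusted p under 0.05), while among 176 other tested P450 genes 33 were called, 14 higher and 19 lower, which is 18.8%. The median absolute log2 fold change was 0.21 in the 7 and 0.24 in the other P450 genes. The difference between these sets was not tested. The other P450 genes named here were chosen after their values were seen, as the 2 highest and the 2 lowest log2 fold changes among called genes at a mean log2 CPM of at least 1. CYP86B1, a fatty acid hydroxylase of suberin synthesis, had 29.6, 39.7 and 41.5 CPM in Dex and 17.4, 16.5 and 16.1 CPM in no_Dex (log2 fold change 1.15, SE 0.12; edgeR adjusted p = 0.00112). CYP71B22 had 35.8, 41.9 and 41.5 CPM in Dex and 20.5, 20.2 and 19.8 CPM in no_Dex (log2 fold change 0.97, SE 0.07; edgeR adjusted p = 0.000364). CYP78A8 had 2.61, 4.08 and 6.16 CPM in Dex and 16.2, 17.0 and 14.6 CPM in no_Dex (log2 fold change -1.90, SE 0.24; edgeR adjusted p = 0.00223). CYP78A6, an organ growth gene, had 1.66, 2.10 and 2.39 CPM in Dex and 4.96, 4.59 and 3.23 CPM in no_Dex (log2 fold change -1.06, SE 0.21; edgeR adjusted p = 0.0137).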
